A study of Mus musculus with 42 samples.

Results

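The genes described here are the core machinery of macroautophagy and its cargo receptors in mouse kidney, 38 genes chosen by symbol out of 54532 in the deposited tables. The ULK1 initiation complex had 5 genes, the class III PI3-kinase complex with its regulators 6, and ATG9 with lipid transfer proteins and PI3P effectors 7. The conjugation of ATG12 and ATG8 had 10 genes, the ATG8 family 5 and the receptors 5. All 38 were found in the tables of every cohort and passed the filter on low counts.

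RNA of 42 whole kidneys from C57BL/6 mice was sequenced to ask what the loss of the transcription factor Tfeb changes in kidneys that lack Tsc2, a brake on the kinase complex mTORC1. In the CaggCreERT2 cohort, sampled at P30, a tamoxifen-inducible Cre deletes throughout the body, and pups received tamoxifen through injected nursing mothers. In the KspCre cohort, sampled at P50, the cadherin 16 promoter drives Cre in tubular epithelium, so other kidney cells keep the floxed genes. Each of these cohorts held 3 Control, 3 Tsc2 KO, 3 Tfeb KO and 3 double knockout (DKO, Tsc2 and Tfeb) libraries. A further KspCre cohort at P50, the drug cohort, held 3 libraries in each of 6 groups. These were Control, Tsc2 KO and DKO, each given vehicle or Rapamycin, an mTORC1 inhibitor, at 1 mg/kg intraperitoneally 3 times a week for 11 injections from P25. Controls are labelled wild type. The labels call the 3 libraries of a group replicates without naming the animals, and the study's reporting summary speaks of biological replicates for all experiments. Libraries of a group differed by more than counting noise, with a chi-square per gene of 16.4 to 87.5 over 42 pairs. The study's text and legends give the KspCre Controls as Cre-negative, and the sequenced CaggCreERT2 Controls as Cre-positive.

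Macroautophagy encloses cytoplasm in a double membrane, the autophagosome, and delivers it to lysosomes. mTORC1 restrains it by phosphorylating the ULK1 complex, which otherwise activates the class III PI3-kinase, whose lipid product recruits effectors and the conjugation systems that couple ATG8 proteins to the growing membrane. Receptors such as p62 (Sqstm1) bind both cargo and ATG8 proteins and are themselves degraded with the cargo, so that transcript levels, which are what was measured here, say nothing of the rate of autophagy. Tfeb is a known activator of lysosomal and autophagy genes and binds E-box motifs.

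The libraries held 14926050 to 22807605 reads on genes, and members other than Atg9b had at least 185 reads in every library (median over members and libraries 922). Tsc2 was lower in Tsc2 KO than in Control kidneys by a log2 fold change of -1.22, -1.20 and -1.20 in the CaggCreERT2, KspCre and drug cohorts. Mean Tsc2 was 4.25 FPKM in Tsc2 KO and 5.24 in DKO kidneys of the CaggCreERT2 cohort, and 3.91 and 5.42 in the KspCre cohort. In the drug cohort it was 4.06 in Tsc2 KO and 6.08 in DKO kidneys under vehicle, and 5.70 in Tsc2 KO with Rapamycin. All libraries of these DKO and Rapamycin-treated groups lay above the Tsc2 KO libraries compared with them. The part of this difference in the results was not tested. Tfeb in DKO relative to Tsc2 KO kidneys had log2 fold changes of -1.48, -0.48 (adjusted p = 0.360) and -1.07. For 4 CaggCreERT2 libraries the count table and the FPKM table disagree on the name, which for 2 of them means Tfeb KO in one table and DKO in the other. Groups here follow the FPKM table. The library named DKO 1 there and Tfeb KO 3 in the count table had Tsc2 at 5.26 FPKM, beside 4.82 and 5.64 in the other DKO libraries, and the library named Tfeb KO 3 there and DKO 3 in the count table had 10.2, within the 9.05 to 10.6 of Control and Tfeb KO libraries. Gpnmb, at 14.8 to 60.2 FPKM in Tsc2 KO libraries, was 3.96 in the former and 0.00921 in the latter, against at most 0.0703 in Control and Tfeb KO libraries. Both genes thus fit the names of the FPKM table and go against those of the count table, and calls said to be lost under the count table's names were lost in a fit whose groups mix these genotypes. By Xist and Y-linked genes the CaggCreERT2 Controls were 3 males and the Tfeb KO mice 3 females, so sex and genotype cannot be told apart between these groups. Tsc2 KO held 1 male and 2 females and DKO 2 males and 1 female, and with Xist as a covariate 14 of the 18 CaggCreERT2 calls were kept. Every library of the KspCre and drug cohorts had Xist above the Y-linked genes, so by the same genes these mice were female.

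Summed levels of cell type markers differed in range between the genotypes. The summed FPKM of 10 macrophage markers was 96.0 to 129 in CaggCreERT2 Control and 176 to 218 in Tsc2 KO libraries, 61.4 to 87.2 and 119 to 193 in the KspCre cohort, and 48.5 to 64.3 and 132 to 209 in the drug cohort under vehicle. That of 7 proximal tubule markers was 1649 to 1858 and 439 to 923, 1424 to 1680 and 699 to 1388, and 1419 to 1698 and 389 to 612 in the same order. Under Rapamycin, Tsc2 KO libraries had 56.2 to 98 for macrophages and 1311 to 1708 for proximal tubule. The summed FPKM of 8 distal nephron and collecting duct markers was 1874 to 2342 in CaggCreERT2 Control and 1014 to 1328 in Tsc2 KO libraries, without overlap, and 6 of the 8 were lower in Tsc2 KO at an adjusted p of at most 0.05 (edgeR). In the other cohorts the ranges of these groups overlapped, with 4 of 8 lower at that level in each. The sums were 1914 to 2432 in Control and 2220 to 2427 in Tsc2 KO libraries of the KspCre cohort. They were 1636 to 2170 and 1206 to 2181 in the drug cohort under vehicle. Of all genes at the minimum of 5 FPKM, 15.5%, 8.74% and 24.6% were lower at that level in the CaggCreERT2, KspCre and drug cohorts. DKO libraries had 115 to 174 for macrophages and 1199 to 1433 for proximal tubule in the CaggCreERT2 cohort, 74.9 to 758 and 565 to 1366 in the KspCre cohort, and 70.2 to 94.7 and 863 to 1617 in the drug cohort under vehicle. For distal nephron markers they had 1537 to 1763, 2626 to 4154 and 2857 to 3208 in the same order, above all Tsc2 KO libraries compared with them. In the CaggCreERT2 cohort the DKO sums stayed below those of all Controls. In the drug cohort 3 of 5 fibroblast markers at the FPKM minimum rose in Tsc2 KO under vehicle and 1 of 5 fell with Rapamycin, with a sum over 6 markers of 19.0 to 41.1 in Control, 27.5 to 83.1 in Tsc2 KO and 20.2 to 36.4 with Rapamycin, while none was called in Tsc2 KO kidneys of the other cohorts. No macrophage or proximal tubule marker was at 0 in all libraries of a group, and the part of these shifts in the results was not tested. In bulk RNA, fewer cells of a type and less RNA per cell cannot be told apart. KspCre DKO 1 had a macrophage sum of 758, against at most 193 in all Control and Tsc2 KO libraries of its cohort, a lymphocyte sum of 31.8 against at most 5.65 in the rest of the cohort, and the lowest proximal tubule sum of the cohort (565). DKO vehicle 2 of the drug cohort had 3149 for adrenal and fat markers against 912 in Tsc2 KO vehicle 1 and at most 283 elsewhere. Tsc2 KO vehicle 1 stood apart from the other vehicle Tsc2 KO libraries, at 43.2 and 32.8 for these markers, and had 1206 for distal nephron markers against 2119 and 2181. Without it 7 members rose and 5 fell in vehicle Tsc2 KO kidneys, and 4 rose and 5 fell with Rapamycin.

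Loss of Tsc2 raised a small set of these genes, while most did not pass the test. Called genes had an adjusted p of at most 0.05 (edgeR's quasi-likelihood test, Benjamini-Hochberg over all tested genes) and a mean of at least 5 FPKM in 1 of the groups compared. In CaggCreERT2 Tsc2 KO kidneys 9 of the 32 members that could pass rose and 1 fell, while 23.0% of all such genes rose and 15.5% fell. In KspCre Tsc2 KO kidneys 2 of 31 rose and none fell, against 9.42% and 8.74% of all genes. In the drug cohort under vehicle 8 of 34 rose and 5 fell, against 23.8% and 24.6%. The shares that rose were thus close to those of all genes in the CaggCreERT2 and drug cohorts. Uvrag in both of these cohorts, and Atg7 and Atg4b in the drug cohort, had Control means under 5 FPKM. They could pass against Control only through the group where they were high, and Rb1cc1 in the drug cohort only through Control. Sqstm1 and Optn rose in all 3 cohorts, Ulk1, Uvrag, Vmp1 and Atg7 in the CaggCreERT2 and drug cohorts, and Wipi2 fell in these same cohorts. No member rose in one cohort and fell in another, and 22 were called in none. How often other genes were called in several cohorts is not given here, so these repeats are not set against all genes. The median log2 fold change of the 38 members was 0.07, 0.09 and 0.14 in the CaggCreERT2, KspCre and drug cohorts, with all tested genes at 0.00, -0.01 and 0.01 and those at the FPKM minimum at 0.06, -0.01 and 0.00. Leaving out 1 library moved the members' median over 0.06 to 0.09, 0.07 to 0.17 and 0.04 to 0.16, with the lowest drug value without Tsc2 KO vehicle 1 and the highest KspCre value without Control 1 or Tsc2 KO 1.

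Fewer members differed between DKO and Tsc2 KO kidneys. In the CaggCreERT2 cohort 1 of 32 (Wipi1) was higher and none lower in DKO, against 6.91% and 7.56% of all genes. In the KspCre cohort 0 of 31 were called, with 1 member and 1063 genes at an unadjusted p under 0.05 and 0.117% and 0.169% of genes called. DESeq2 called 1 member lower there. Same-numbered libraries of these 2 groups deviated together (correlations of 0.189 to 0.246), and with the number as a block 0 members were called too. In the drug cohort under vehicle 3 of 32 were higher and 5 lower in DKO, against 16.9% and 12.6%. Against Control, DKO kidneys had 7 of 32 members higher in the CaggCreERT2 cohort (10.2% of all genes, with 4.73% and no member lower), 0 of 31 in the KspCre cohort (3.89% called, 2.33% higher and 1.56% lower, with 5 members at an unadjusted p under 0.05 and 0 called by DESeq2) and 3 of 33 higher with 1 lower in the drug cohort (5.37% and 3.05% of genes, 8.42% in all). The last counts were 1 higher and 0 lower without DKO vehicle 2, the library with adrenal and fat markers. None of the 7 calls of the CaggCreERT2 cohort held under the names of the count table, which place the library with Tsc2 at 10.2 FPKM among the DKO. These comparisons share their Tsc2 KO or Control libraries, so that their values are not independent of each other.

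Rapamycin changed members in Tsc2 KO kidneys, at a share in either direction no higher than that of all genes. Relative to vehicle 5 of 34 rose and 6 fell (32.4% in all), while 21.2% of all genes rose and 17.3% fell (38.5% in all). In DKO kidneys none of 32 rose and 2 fell with Rapamycin, against 2.73% and 4.70% of genes (7.43% in all). In Control kidneys none of 32 was called, with 2 members at an unadjusted p under 0.05 and 0.0664% of genes called lower. Tfeb KO kidneys, on a Tsc2-proficient background, had 0 members called against Control in either cohort, and 0 members had an unadjusted p under 0.05. Among all genes 0.0128% rose and 0.0128% fell in the CaggCreERT2 cohort and none in the KspCre cohort. Tfeb itself was 2.73 to 3.73 FPKM in Tfeb KO and 4.57 to 8.02 in Control libraries of the CaggCreERT2 cohort. In the KspCre cohort it was 4.32 to 5.25 and 5.85 to 6.24. These comparisons are thus of kidneys with less Tfeb transcript, and in the KspCre cohort with most of it left. DESeq2 also called 0 members in the comparisons of Tfeb KO with Control and of Rapamycin with vehicle in Control kidneys. Tests of the difference of effects were made too. The Rapamycin effect differed between Tsc2 KO and Control kidneys for 7 of 34 members, 4 upward and 3 downward, against 17.2% and 12.5% of genes. Between Tsc2 KO and DKO kidneys it differed for 3 of 34, all upward, against 8.11%. The Tfeb effect differed with Tsc2 for 0 members in the CaggCreERT2 cohort (4 at an unadjusted p under 0.05, with 1.63% of genes upward and 0.504% downward) and 0 in the KspCre cohort (3 at that level).

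**Figure D1:**
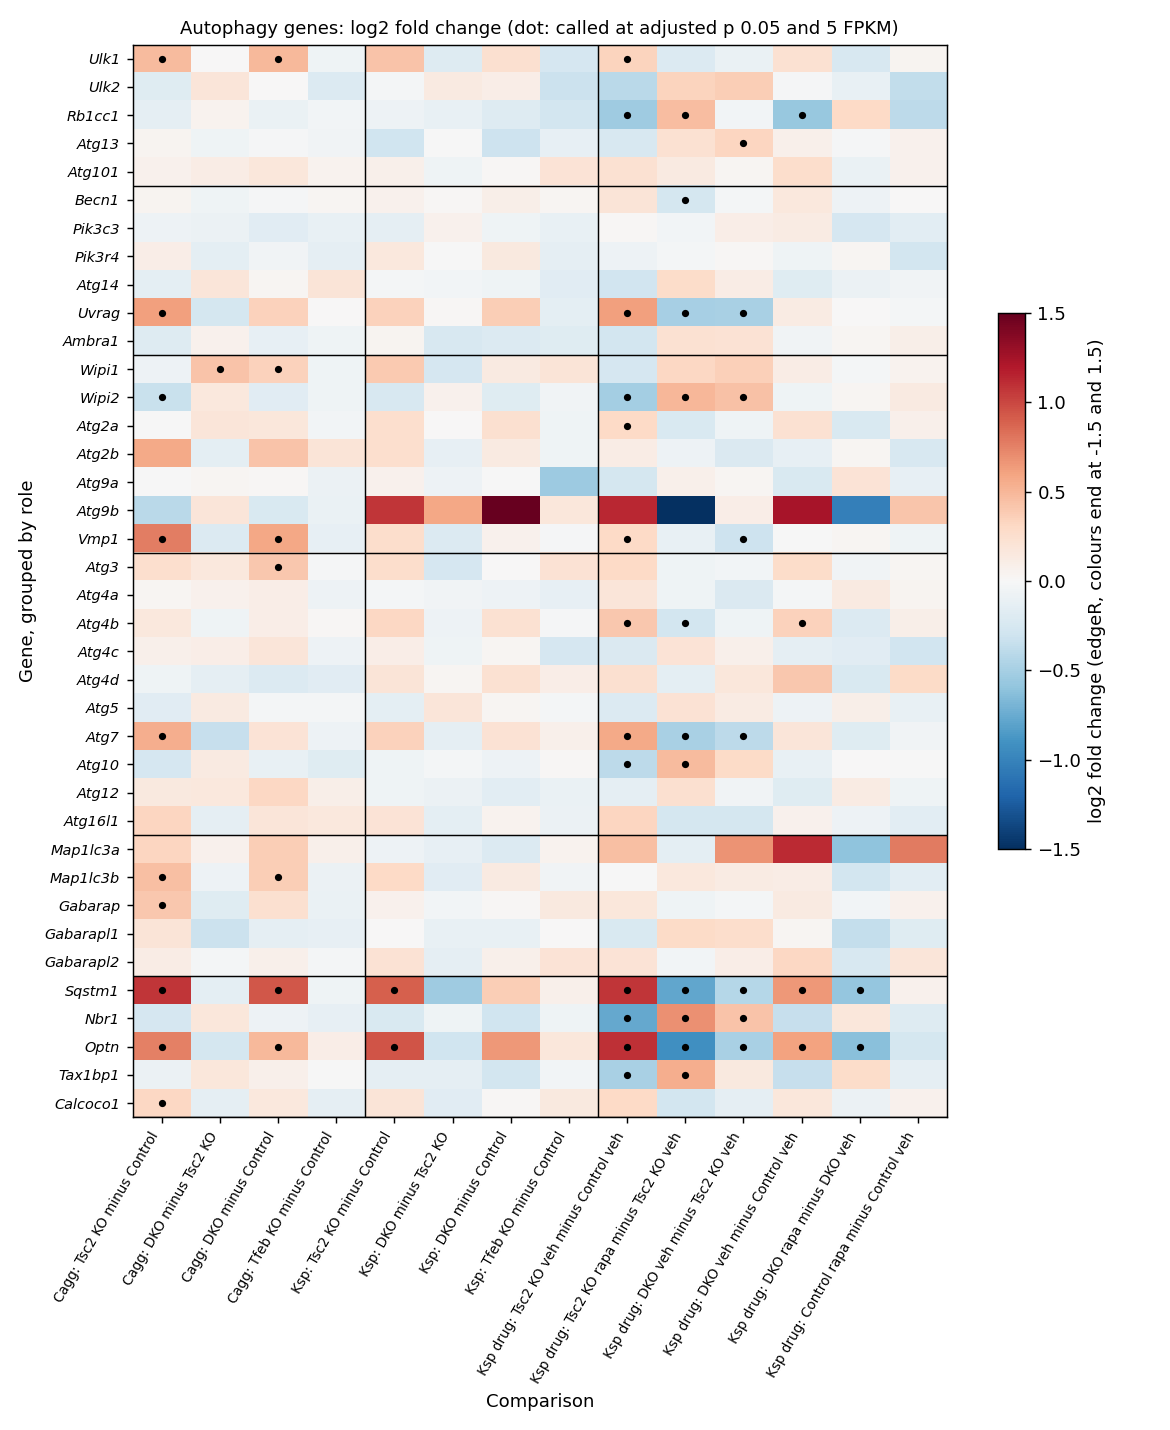
Log2 fold change (colour, edgeR) of the 38 genes in rows, grouped by role with lines between roles, in the 14 comparisons between groups of the 3 cohorts in columns. Dots mark called genes: Sqstm1 and Optn are dotted in all 3 comparisons of Tsc2 KO with Control, and columns for Tfeb KO and for Rapamycin in Control mice hold no dot. The strong colours of Atg9b come from 1 to 45 reads per library.

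Among the receptors, Sqstm1 and Optn were the members with the most repeated increase. Sqstm1 encodes p62, the receptor that gathers ubiquitinated cargo into bodies and binds ATG8 proteins (ENSMUSG00000015837, chr11:50199366-50210827, mm10). Its exons share 17.3% of their bases with Mrnip on the other strand, whose reads cannot be told apart in a library without strand. Sqstm1 in the CaggCreERT2 cohort was 139, 133 and 142 FPKM in Control, 285, 307 and 241 in Tsc2 KO, 143, 135 and 112 in Tfeb KO and 258, 252 and 257 in DKO kidneys. All Tsc2 KO and DKO libraries lay above all Control and Tfeb KO libraries. Tsc2 KO exceeded Control with a log2 fold change of 1.07 (SE 0.12, adjusted p = 5.86e-05), a 2.10-fold difference, and DKO exceeded Control with a log2 fold change of 0.93 (SE 0.12, adjusted p = 0.000418). The call in DKO was lost under the count table's names (adjusted p up to 0.559). DKO differed from Tsc2 KO with a log2 fold change of -0.15 (adjusted p = 0.463).

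Sqstm1 in the KspCre cohort was 142, 144 and 134 FPKM in Control, 268, 256 and 262 in Tsc2 KO, 143, 175 and 127 in Tfeb KO and 157, 187 and 199 in DKO kidneys. Tsc2 KO libraries were the highest, at 1.86-fold the Control level (log2 0.90, SE 0.14, adjusted p = 0.00202), and DKO libraries lay between Control and Tsc2 KO without overlap. The difference of DKO from Tsc2 KO was a log2 fold change of -0.53 (adjusted p = 0.145) and did not pass, nor without DKO 1, the library with the high macrophage sum (log2 -0.44, adjusted p = 0.297), nor with the replicate number as a block in a fit of these groups (log2 -0.53, adjusted p = 0.217). These are not all the alternatives, and DESeq2 called 1 member lower in this comparison. The test of whether the Tfeb effect on Sqstm1 depended on Tsc2 did not pass either (log2 -0.61, adjusted p = 0.421).

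Sqstm1 under vehicle in the drug cohort was 146, 111 and 143 FPKM in Control, 280, 273 and 289 in Tsc2 KO and 233, 199 and 194 in DKO kidneys. With Rapamycin, Sqstm1 was 139, 135 and 146 FPKM in Control, 165, 143 and 182 in Tsc2 KO and 144, 138 and 137 in DKO kidneys. Tsc2 KO libraries under vehicle stood apart above all others, and those under Rapamycin overlapped both Control groups. The rise in Tsc2 KO was a log2 fold change of 1.07 (SE 0.12, adjusted p = 5.60e-06) and the fall with Rapamycin -0.78 (SE 0.12, adjusted p = 0.000183). DKO was lower than Tsc2 KO under vehicle with a log2 fold change of -0.43 (SE 0.12, adjusted p = 0.0185) and fell further with Rapamycin with a log2 fold change of -0.58 (SE 0.12, adjusted p = 0.0130). The call of DKO against Tsc2 KO was lost without DKO vehicle 3, without the filter on low counts or with only the groups compared (adjusted p up to 0.0825). That of Rapamycin in DKO was lost without DKO vehicle 1 or DKO Rapamycin 2 or 3 (adjusted p up to 0.0641). Under vehicle DKO exceeded Control with a log2 fold change of 0.65 (SE 0.12, adjusted p = 0.00632). That excess was lost with only the groups compared (adjusted p up to 0.0791). As a share of the difference in mean FPKM between Control and Tsc2 KO, the DKO mean lay at 83.9% in the CaggCreERT2, 33.3% in the KspCre and 51.2% in the drug cohort, and the Tsc2 KO mean under Rapamycin at 20.2%. These shares were not tested against each other.

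Optn encodes optineurin, a receptor known for damaged mitochondria and bacteria (ENSMUSG00000026672, chr2:5020642-5064051, mm10). Optn in the CaggCreERT2 cohort was 6.94, 8.09 and 8.14 FPKM in Control, 12.7, 12.9 and 11.9 in Tsc2 KO, 7.92, 8.44 and 8.09 in Tfeb KO and 10.2, 11.0 and 10.6 in DKO kidneys, with DKO between the other Tsc2-deficient group and the Controls. Tsc2 KO exceeded Control with a log2 fold change of 0.75 (SE 0.09, adjusted p = 0.000130) and DKO exceeded Control with a log2 fold change of 0.49 (SE 0.09, adjusted p = 0.00585), while DKO differed from Tsc2 KO with a log2 fold change of -0.26 (adjusted p = 0.10). The call in DKO was lost under the count table's names (adjusted p up to 0.467). Optn in the KspCre cohort was 5.00, 8.76 and 5.59 FPKM in Control, 12.3, 14.3 and 10.7 in Tsc2 KO, 5.74, 8.95 and 7.10 in Tfeb KO and 9.35, 10.6 and 10.5 in DKO kidneys. The rise there was 1.92-fold (log2 0.94, SE 0.22, adjusted p = 0.0146). The Optn call was lost without Control 1 or 3 or Tsc2 KO 2 (adjusted p up to 0.0593).

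Optn under vehicle in the drug cohort was 5.79, 8.36 and 5.40 FPKM in Control, 12.9, 14.4 and 14.3 in Tsc2 KO and 8.88, 11.0 and 9.71 in DKO kidneys. With Rapamycin, Optn was 4.98, 5.36 and 5.90 FPKM in Control, 7.14, 6.73 and 8.02 in Tsc2 KO and 7.90, 5.41 and 5.87 in DKO kidneys. The Tsc2 KO libraries under vehicle were again the highest, and those under Rapamycin fell within the range of the vehicle Controls. Tsc2 KO exceeded Control 2.13-fold (log2 1.09, SE 0.17, adjusted p = 8.58e-05) and Rapamycin lowered it with a log2 fold change of -0.92 (SE 0.17, adjusted p = 0.000568). DKO was lower than Tsc2 KO with a log2 fold change of -0.49 (SE 0.16, adjusted p = 0.0416). The Optn call was lost without Tsc2 KO vehicle 1, 2 or 3 or DKO vehicle 1 or 3, without the filter on low counts or with the replicate number as a block (adjusted p up to 0.142). Rapamycin also lowered Optn in DKO with a log2 fold change of -0.63 (SE 0.17, adjusted p = 0.0374). This call was lost without DKO vehicle 1, 2 or 3 or DKO Rapamycin 2 or 3, with only the groups compared or with the replicate number as a block (adjusted p up to 0.177). Under vehicle DKO exceeded Control with a log2 fold change of 0.60 (SE 0.17, adjusted p = 0.0420). That excess was lost without Control vehicle 1 or 3 or DKO vehicle 1, 2 or 3, with only the groups compared or with the replicate number as a block (adjusted p up to 0.184).

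Nbr1 and Tax1bp1, receptors that act together with p62, went the other way in the drug cohort. Nbr1 (ENSMUSG00000017119, chr11:101552149-101581951, mm10) was 37.5, 41.9 and 43.0 FPKM in Control, 24.0, 23.2 and 24.4 in Tsc2 KO and 33.8, 29.6 and 33.4 in DKO kidneys under vehicle. With Rapamycin, Nbr1 was 32.5, 36.8 and 37.9 FPKM in Control, 34.5, 42.3 and 37.9 in Tsc2 KO and 36.5, 36.6 and 35.6 in DKO kidneys. The vehicle Tsc2 KO libraries were the 3 lowest of the 18. The fall in Tsc2 KO was a log2 fold change of -0.77 (SE 0.10, adjusted p = 2.17e-05), a 1.71-fold difference, the rise with Rapamycin 0.68 (SE 0.10, adjusted p = 0.000118) and the excess of DKO over Tsc2 KO 0.43 (SE 0.10, adjusted p = 0.00567). The change with Rapamycin differed between Tsc2 KO and Control mice with a log2 fold change of 0.87 (SE 0.14, adjusted p = 0.000587) and between Tsc2 KO and DKO mice with a log2 fold change of 0.51 (SE 0.14, adjusted p = 0.0396). The latter was lost without Tsc2 KO vehicle 1, 2 or 3, Tsc2 KO Rapamycin 2 or 3, DKO vehicle 1 or 3 or DKO Rapamycin 1, 2 or 3 or without the filter on low counts (adjusted p up to 0.137).

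Nbr1 in the CaggCreERT2 cohort was 32.3, 34.9 and 34.1 FPKM in Control, 27.2, 24.8 and 29.5 in Tsc2 KO, 30.6, 30.9 and 30.2 in Tfeb KO and 30.4, 30.0 and 32.9 in DKO kidneys. Nbr1 in the KspCre cohort was 36.6, 28.7 and 32.4 FPKM in Control, 25.3, 26.3 and 31.6 in Tsc2 KO, 30.4, 30.3 and 32.2 in Tfeb KO and 22.4, 29.3 and 27.5 in DKO kidneys. The differences of Tsc2 KO from Control were log2 fold changes of -0.25 (adjusted p = 0.0528) and -0.23 (adjusted p = 0.304), below 0 as in the drug cohort but not past the threshold. Tax1bp1 (ENSMUSG00000004535, chr6:52713729-52766780, mm10) was 30.4, 41.1 and 34.7 FPKM in Control, 28.9, 22.2 and 24.4 in Tsc2 KO and 28.9, 25.2 and 29.3 in DKO kidneys under vehicle in the drug cohort. With Rapamycin, Tax1bp1 was 32.6, 34.5 and 29.9 FPKM in Control, 30.7, 38.4 and 40.5 in Tsc2 KO and 35.7, 32.8 and 32.3 in DKO kidneys. All vehicle Tsc2 KO libraries lay below all vehicle Controls. It fell in Tsc2 KO with a log2 fold change of -0.49 (SE 0.14, adjusted p = 0.00941) and rose with Rapamycin with a log2 fold change of 0.54 (SE 0.14, adjusted p = 0.00702). The fall was lost without Control vehicle 2 or Tsc2 KO vehicle 2 (adjusted p up to 0.0593). The change with Rapamycin differed between Tsc2 KO and Control mice with a log2 fold change of 0.67 (adjusted p = 0.0221). That difference was lost without Control vehicle 2, Control Rapamycin 3, Tsc2 KO vehicle 2 or Tsc2 KO Rapamycin 3 (adjusted p up to 0.0657).

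Tax1bp1 in the CaggCreERT2 cohort was 29.1, 31.0 and 27.1 FPKM in Control, 27.1, 24.9 and 26.3 in Tsc2 KO, 28.5, 30.1 and 26.5 in Tfeb KO and 29.8, 28.9 and 30.9 in DKO kidneys, with a log2 fold change of Tsc2 KO from Control of -0.09 (adjusted p = 0.466). Tax1bp1 in the KspCre cohort was 36.2, 32.3 and 29.0 FPKM in Control, 30.5, 25.6 and 32.9 in Tsc2 KO, 30.4, 32.2 and 31.8 in Tfeb KO and 25, 29.8 and 25.5 in DKO kidneys, and the difference was a log2 fold change of -0.14 (adjusted p = 0.560). Calcoco1, a receptor for endoplasmic reticulum, ranged from 12.3 to 23.4 FPKM over all libraries and rose in CaggCreERT2 Tsc2 KO kidneys with a log2 fold change of 0.31 (SE 0.10, adjusted p = 0.0365). The Calcoco1 call was lost without Control 1 or 2 or Tsc2 KO 1, 2 or 3, without the filter on low counts, with only the groups compared, with the replicate number as a block, under the count table's names or with Xist as a covariate (adjusted p up to 0.144).

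**Figure D2:**
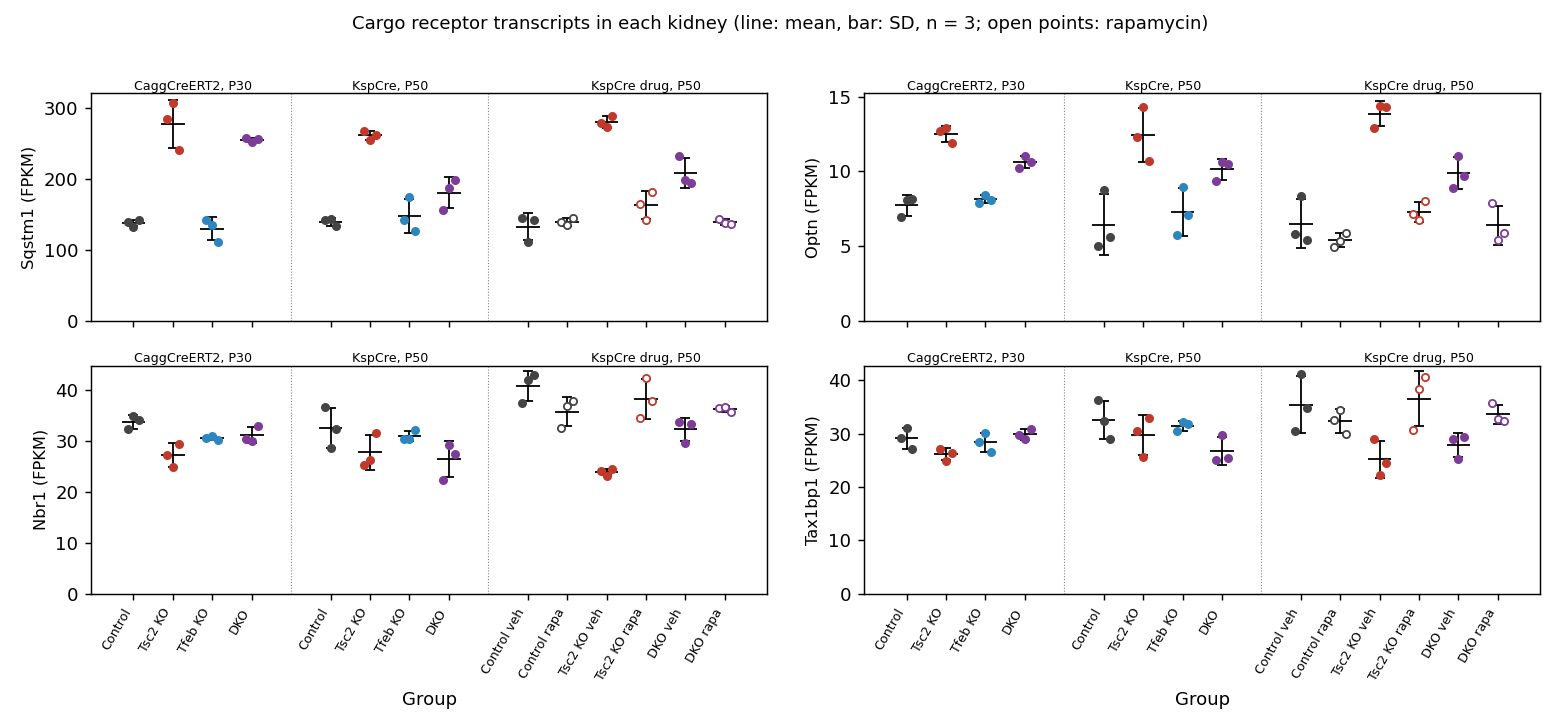
FPKM of Sqstm1, Optn, Nbr1 and Tax1bp1 in each library (points, open under Rapamycin) of the 14 groups, with the mean (line) and SD (bar), n = 3. The mean of Sqstm1 and of Optn is highest in the Tsc2 KO group of each cohort, and in the drug cohort Nbr1 is lowest in Tsc2 KO kidneys under vehicle, at 24.0, 23.2 and 24.4 FPKM.

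The ratio of Sqstm1 to Nbr1 within a library was looked at after these values were seen and is given without a test. It was 4.30, 3.82 and 4.18 in Control, 10.5, 12.4 and 8.18 in Tsc2 KO and 8.49, 8.40 and 7.79 in DKO libraries of the CaggCreERT2 cohort, where DKO overlapped Tsc2 KO. In the KspCre cohort the ratio was 3.90, 5.01 and 4.15 in Control, 10.6, 9.72 and 8.31 in Tsc2 KO and 7.0, 6.37 and 7.25 in DKO libraries, with DKO between the others. The ratio under vehicle in the drug cohort was 3.91, 2.64 and 3.32 in Control, 11.6, 11.8 and 11.9 in Tsc2 KO and 6.88, 6.74 and 5.83 in DKO libraries. With Rapamycin the Tsc2 KO libraries had 4.79, 3.37 and 4.80, a range that overlaps that of the Controls. The ratio of Optn to Tax1bp1 was 0.191, 0.203 and 0.156 in Control, 0.446, 0.650 and 0.587 in Tsc2 KO and 0.307, 0.438 and 0.332 in DKO libraries under vehicle. In the KspCre cohort it was 0.138 to 0.271 in Control, 0.326 to 0.560 in Tsc2 KO and 0.355 to 0.410 in DKO libraries, where DKO overlapped Tsc2 KO. In the CaggCreERT2 cohort it was 0.238 to 0.300, 0.453 to 0.517 and 0.341 to 0.381 in the same order, without overlap. Of the summed FPKM of the 5 receptors, Sqstm1 made up 57.2 ± 5.59% (SD, n = 3) in Control and 77.3 ± 1.2% in Tsc2 KO kidneys under vehicle, and Nbr1 17.6 ± 1.77% and 6.57 ± 0.0662%.

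**Figure D3:**
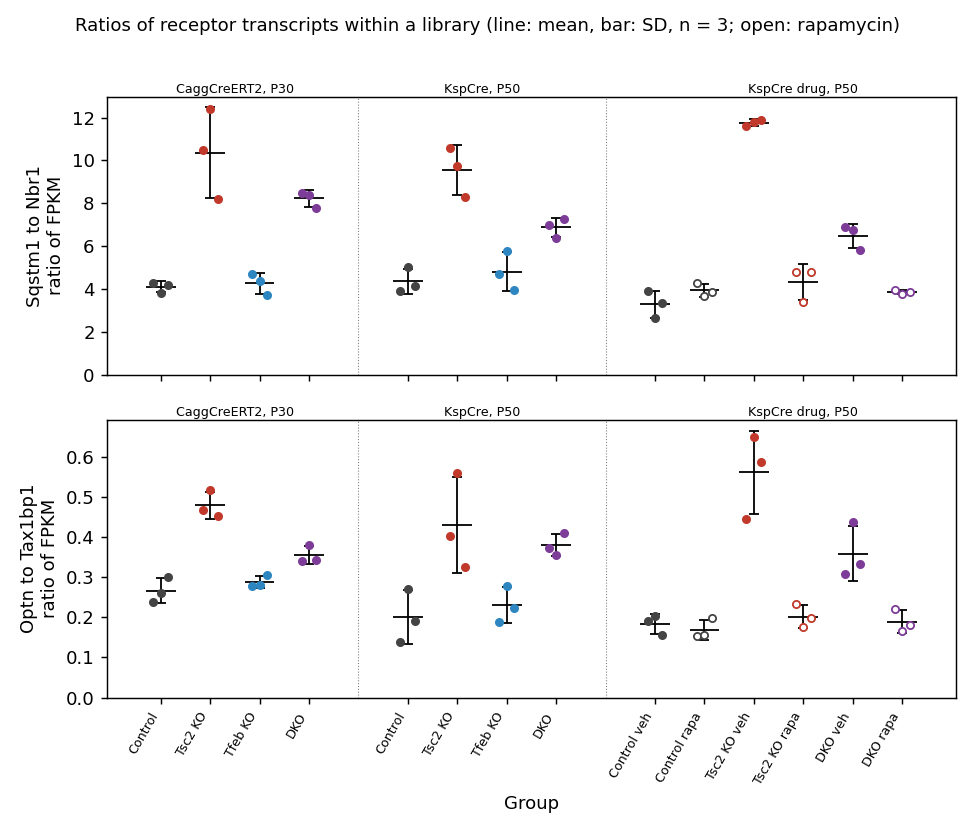
Ratio of Sqstm1 to Nbr1 (top) and of Optn to Tax1bp1 (bottom) in FPKM within each library (points, open under Rapamycin) of the 14 groups, with mean (line) and SD (bar), n = 3. Tsc2 KO groups have the highest mean ratio of Sqstm1 to Nbr1 in each cohort, with libraries at 8.18 to 12.4 in the CaggCreERT2 cohort, and under Rapamycin their libraries lie at 3.37 to 4.80.

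Promoters were searched for the E-box CACGTG, which reads the same on both strands, and for the longer motif TCACGTGA, which holds it and is the core of the elements that Tfeb is known to bind. RefSeq promoters (GRCm38.p6, 250 bases before to 50 after each start) were given for 32 of the 38 members, with 38 promoters in all. CACGTG was in 4 of these 38 (10.5%) and in 7.15% of the 32851 promoters of the table, and TCACGTGA in 1 (2.63%) and 0.974%. The 4 belong to Atg3, Atg5, Atg7 and Atg14, and the longer motif was in that of Atg3. Sqstm1 and Optn hold neither in this window. Shown are the 250 bases before the start, 5′ to 3′ on the gene's strand, for the 2 receptors that rose in every cohort and for 2 genes of the conjugation systems with the motif. Capitals mark CACGTG.
Sqstm1 (chr11:50210821-50211070, - strand): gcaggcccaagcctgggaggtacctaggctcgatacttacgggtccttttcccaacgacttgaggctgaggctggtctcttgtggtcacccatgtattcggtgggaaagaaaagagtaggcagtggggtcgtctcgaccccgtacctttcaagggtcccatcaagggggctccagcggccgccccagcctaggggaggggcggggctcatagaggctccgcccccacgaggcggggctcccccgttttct
Optn (chr2:5064118-5064367, - strand): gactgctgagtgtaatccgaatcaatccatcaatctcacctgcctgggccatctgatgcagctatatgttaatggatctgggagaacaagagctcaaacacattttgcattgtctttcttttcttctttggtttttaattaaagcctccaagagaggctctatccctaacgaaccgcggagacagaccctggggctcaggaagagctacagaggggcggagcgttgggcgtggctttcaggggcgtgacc
Atg3 (chr16:45158579-45158828, + strand): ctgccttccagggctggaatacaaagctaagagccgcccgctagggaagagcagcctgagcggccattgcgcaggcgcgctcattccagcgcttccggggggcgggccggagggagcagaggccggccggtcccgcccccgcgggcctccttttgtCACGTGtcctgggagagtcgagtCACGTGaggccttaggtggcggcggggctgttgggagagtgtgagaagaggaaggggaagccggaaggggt
Atg7 (chr6:114670846-114671095, + strand): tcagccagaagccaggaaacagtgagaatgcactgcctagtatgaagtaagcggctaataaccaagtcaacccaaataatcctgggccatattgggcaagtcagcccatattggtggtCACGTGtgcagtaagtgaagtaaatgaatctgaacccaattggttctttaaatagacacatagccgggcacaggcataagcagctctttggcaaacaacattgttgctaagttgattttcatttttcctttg
The Atg7 start used by RefSeq here lies inside the gene model of the deposited table. A match is a description of the sequence and was not tied to the expression values.

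Of the initiation complex, Ulk1 rose with Tsc2 loss in the CaggCreERT2 and drug cohorts and Rb1cc1 fell in the drug cohort. Ulk1 (ENSMUSG00000029512, chr5:110784488-110810097, mm10) encodes the kinase that mTORC1 inhibits. Ulk1 in the CaggCreERT2 cohort was 11.0, 12.8 and 12 FPKM in Control, 16.6, 16.5 and 14.5 in Tsc2 KO, 11.8, 11.1 and 10.8 in Tfeb KO and 16.7, 16.7 and 15.5 in DKO kidneys. All libraries without Tsc2 lay above all with it. The rise was a log2 fold change of 0.48 (SE 0.09, adjusted p = 0.00266) in Tsc2 KO and 0.49 (SE 0.09, adjusted p = 0.00587) in DKO, and DKO differed from Tsc2 KO with a log2 fold change of 0.01 (adjusted p = 0.948). The call in Tsc2 KO was lost under the count table's names (adjusted p up to 0.0934). The one in DKO was lost under the count table's names (adjusted p up to 0.615). Ulk1 in the KspCre cohort was 14.0, 10.5 and 10.9 FPKM in Control, 13.9, 16.1 and 17.9 in Tsc2 KO, 8.96, 9.36 and 11.3 in Tfeb KO and 10.1, 15 and 16.6 in DKO kidneys, and Tsc2 KO differed from Control with a log2 fold change of 0.43 (adjusted p = 0.161). Ulk1 in the drug cohort was 14.8, 12.8 and 14.3 FPKM in Control, 17.5, 16.7 and 18.4 in Tsc2 KO and 17.4, 14.9 and 16.8 in DKO kidneys under vehicle. With Rapamycin, Ulk1 was 13.2, 14.7 and 15.2 FPKM in Control, 14.3, 15 and 16.1 in Tsc2 KO and 14.2, 14.0 and 13.4 in DKO kidneys. The rise in Tsc2 KO under vehicle was a log2 fold change of 0.33 (SE 0.09, adjusted p = 0.0108). The Ulk1 call was lost without Control vehicle 2, without the filter on low counts or with only the groups compared (adjusted p up to 0.0849). The log2 fold change with Rapamycin in Tsc2 KO kidneys was -0.21 (adjusted p = 0.103).

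Rb1cc1 encodes FIP200, the scaffold of the complex, and was near the FPKM minimum. Rb1cc1 in the drug cohort was 5.28, 7.58 and 6.65 FPKM in Control, 4.75, 4.33 and 4.44 in Tsc2 KO and 4.39, 4.26 and 4.52 in DKO kidneys under vehicle. With Rapamycin, Rb1cc1 was 4.72, 5.33 and 4.79 FPKM in Control, 4.64, 7.85 and 6.02 in Tsc2 KO and 5.16, 5.43 and 5.65 in DKO kidneys. Both Tsc2-deficient groups under vehicle lay below the Controls. It fell in Tsc2 KO with a log2 fold change of -0.53 (SE 0.15, adjusted p = 0.0132) and in DKO with a log2 fold change of -0.57 (SE 0.15, adjusted p = 0.0406), and rose with Rapamycin in Tsc2 KO with a log2 fold change of 0.46 (SE 0.15, adjusted p = 0.0357), where the groups overlapped. The fall in Tsc2 KO was lost without Control vehicle 2 or Tsc2 KO vehicle 2 (adjusted p up to 0.0725). That in DKO was lost without Control vehicle 2 or 3 or DKO vehicle 1, 2 or 3 or with only the groups compared (adjusted p up to 0.159). The rise was lost without Tsc2 KO vehicle 1, 2 or 3 or Tsc2 KO Rapamycin 2 or 3 or with only the groups compared (adjusted p up to 0.220). Rb1cc1 in the CaggCreERT2 cohort was 4.72, 5.33 and 4.43 FPKM in Control, 4.44, 4.44 and 3.66 in Tsc2 KO, 4.37, 4.84 and 4.60 in Tfeb KO and 4.61, 4.27 and 4.28 in DKO kidneys. Rb1cc1 in the KspCre cohort was 5.57, 4.63 and 4.50 FPKM in Control, 4.64, 4.20 and 5.11 in Tsc2 KO, 3.48, 3.55 and 5.13 in Tfeb KO and 3.98, 4.67 and 4.25 in DKO kidneys. Tsc2 KO in these cohorts differed from Control with a log2 fold change of -0.14 (adjusted p = 0.319) and -0.08 (adjusted p = 0.799).

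Atg13, the adaptor of the kinase, was called only between DKO and Tsc2 KO in the drug cohort, where the groups met at 11.7 FPKM. It was 14.2, 12.3 and 13.1 FPKM in Control, 11.7, 10.7 and 11.0 in Tsc2 KO and 14.6, 15.5 and 11.7 in DKO kidneys under vehicle. With Rapamycin, Atg13 was 13.6, 12.9 and 14.7 FPKM in Control, 12.8, 12.9 and 13.5 in Tsc2 KO and 13.9, 13.9 and 13.1 in DKO kidneys. The difference of DKO from Tsc2 KO under vehicle was a log2 fold change of 0.32 (SE 0.10, adjusted p = 0.0331). The Atg13 call was lost without Tsc2 KO vehicle 2 or 3 or DKO vehicle 1 or 2, without the filter on low counts or with only the groups compared (adjusted p up to 0.148). Atg13 in the CaggCreERT2 cohort was 10.8, 12.3 and 13 FPKM in Control, 10.9, 11.9 and 12.7 in Tsc2 KO, 11.8, 12.5 and 10 in Tfeb KO and 11.7, 10.8 and 12.2 in DKO kidneys. Atg13 in the KspCre cohort was 12.7, 11.3 and 11.7 FPKM in Control, 8.96, 10.2 and 9.96 in Tsc2 KO, 9.60, 12.4 and 10.7 in Tfeb KO and 8.16, 10.8 and 9.74 in DKO kidneys. Tsc2 KO differed from Control with a log2 fold change of 0.04 (adjusted p = 0.821) and -0.30 (adjusted p = 0.158). Ulk2, a kinase related to Ulk1, and Atg101, which stabilises Atg13, were called between no groups, with log2 fold changes of at most 0.40 and 0.26 in size. The change of Ulk2 with Rapamycin differed between Tsc2 KO and Control mice with a log2 fold change of 0.69 (SE 0.22, adjusted p = 0.0324). The Ulk2 call was lost without Control vehicle 2 or 3, Control Rapamycin 1 or 2, Tsc2 KO vehicle 1 or 3 or Tsc2 KO Rapamycin 2 (adjusted p up to 0.0910).

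Uvrag, which joins Beclin 1 in a form of the class III PI3-kinase complex known for endosomes and autophagosome maturation, was the member of that complex that rose. Its highest group mean was 6.08 FPKM, and its Control mean was 4.16 FPKM in the CaggCreERT2 cohort and 3.65 under vehicle in the drug cohort. Against Control it reached the FPKM minimum in Tsc2 KO kidneys only through the Tsc2 KO group, where it was high. DKO against Control in the drug cohort (means of 3.97 and 3.65 FPKM) could not be called. Uvrag (ENSMUSG00000035354, chr7:98885021-99141141, mm10) in the CaggCreERT2 cohort was 4.28, 4.57 and 3.61 FPKM in Control, 6.62, 6.35 and 5.26 in Tsc2 KO, 3.12, 4.69 and 4.52 in Tfeb KO and 5.83, 5.11 and 4.57 in DKO kidneys. The rise in Tsc2 KO was a log2 fold change of 0.61 (SE 0.16, adjusted p = 0.0134). The Uvrag call was lost without Control 3 or Tsc2 KO 1 (adjusted p up to 0.0573). Uvrag in the KspCre cohort was 3.60, 3.30 and 3.84 FPKM in Control, 4.59, 4.32 and 4.83 in Tsc2 KO, 3.71, 2.33 and 3.57 in Tfeb KO and 4.53, 5.10 and 4.23 in DKO kidneys, where Tsc2 KO differed from Control with a log2 fold change of 0.35 (adjusted p = 0.185).

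Uvrag in the drug cohort was 3.22, 4.01 and 3.72 FPKM in Control, 5.78, 5.53 and 5.43 in Tsc2 KO and 3.73, 4.50 and 3.68 in DKO kidneys under vehicle. With Rapamycin, Uvrag was 3.73, 3.51 and 3.48 FPKM in Control, 3.84, 3.40 and 4.57 in Tsc2 KO and 4.82, 3.18 and 3.94 in DKO kidneys. The vehicle Tsc2 KO libraries lay above all other libraries of this cohort. It rose in Tsc2 KO with a log2 fold change of 0.61 (SE 0.14, adjusted p = 0.00311), fell with Rapamycin with a log2 fold change of -0.50 (SE 0.14, adjusted p = 0.0158) and was lower in DKO with a log2 fold change of -0.49 (SE 0.14, adjusted p = 0.0211). The fall with Rapamycin was lost without Tsc2 KO Rapamycin 2 (adjusted p up to 0.0721). The difference of DKO was lost without Tsc2 KO vehicle 1 or 2 or DKO vehicle 1 or 3 (adjusted p up to 0.0845). An antisense gene shares 17.6% of the exonic bases of Uvrag, with the same limit as for Sqstm1.

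Becn1, which encodes Beclin 1, shares 43.9% of its exonic bases with Cntd1 on the other strand. Becn1 in the drug cohort was 10.4, 9.91 and 9.69 FPKM in Control, 11.5, 12.4 and 10.3 in Tsc2 KO and 11.8, 10.7 and 11.0 in DKO kidneys under vehicle. With Rapamycin, Becn1 was 9.23, 10.5 and 10.3 FPKM in Control, 9.40, 9.50 and 9.73 in Tsc2 KO and 11.2, 10.4 and 9.98 in DKO kidneys. All Rapamycin-treated Tsc2 KO libraries lay below those given vehicle, a fall with a log2 fold change of -0.26 (SE 0.09, adjusted p = 0.0419). The Becn1 call was lost without Tsc2 KO vehicle 1 or 2 or Tsc2 KO Rapamycin 1, 2 or 3, without the filter on low counts, with only the groups compared or with the replicate number as a block (adjusted p up to 0.236). Becn1 in the CaggCreERT2 cohort was 11.8, 12 and 10.3 FPKM in Control, 11.5, 10.8 and 11.3 in Tsc2 KO, 11.3, 11.6 and 11.4 in Tfeb KO and 10.7, 11.5 and 10.4 in DKO kidneys. Becn1 in the KspCre cohort was 10.5, 8.74 and 8.96 FPKM in Control, 8.59, 10.8 and 10.3 in Tsc2 KO, 9.60, 8.99 and 10.2 in Tfeb KO and 9.82, 9.87 and 10.3 in DKO kidneys. Tsc2 KO differed from Control with a log2 fold change of 0.04 (adjusted p = 0.730) and 0.07 (adjusted p = 0.746). The lipid kinase itself (Pik3c3), its regulatory subunit (Pik3r4), Atg14, which directs the complex to autophagosome sites, and Ambra1 were called between no groups and differed by at most 0.25, 0.27, 0.29 and 0.27 (log2) in size. Pik3r4 reached 5 FPKM in no group.

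Vmp1, Wipi1, Wipi2 and Atg2a were called in the group of ATG9, lipid transfer proteins and PI3P effectors. Vmp1 (ENSMUSG00000018171, chr11:86583865-86683836, mm10) encodes a membrane protein of the endoplasmic reticulum that scrambles lipids where autophagosomes form, and it holds the microRNA gene Mir21a, which shares 2.38% of the exonic bases. Vmp1 in the CaggCreERT2 cohort was 30.0, 27.0 and 29.6 FPKM in Control, 53.1, 51.9 and 36.4 in Tsc2 KO, 26.1, 28.7 and 23.6 in Tfeb KO and 43.2, 42.0 and 40.5 in DKO kidneys. Libraries without Tsc2 lay above all with it. The rise was a log2 fold change of 0.77 (SE 0.14, adjusted p = 0.00128) in Tsc2 KO, a 1.71-fold difference, and 0.58 (SE 0.14, adjusted p = 0.0176) in DKO. The call in Tsc2 KO was lost under the count table's names (adjusted p up to 0.0501). That in DKO was lost without Control 1 or 2 or DKO 1 or 2 or under the count table's names (adjusted p up to 0.688).

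Vmp1 in the KspCre cohort was 23.6, 23.2 and 27.0 FPKM in Control, 30.1, 29.9 and 28.6 in Tsc2 KO, 25.8, 25.4 and 21.5 in Tfeb KO and 27.5, 23.3 and 25.9 in DKO kidneys, and Tsc2 KO differed from Control with a log2 fold change of 0.26 (adjusted p = 0.164). Vmp1 in the drug cohort was 24.9, 25.9 and 25.1 FPKM in Control, 34.7, 27.8 and 30.8 in Tsc2 KO and 26.3, 23.2 and 25.9 in DKO kidneys under vehicle. With Rapamycin, Vmp1 was 25.6, 22.4 and 24.5 FPKM in Control, 28.5, 29.3 and 28.1 in Tsc2 KO and 23.0, 25.2 and 28.6 in DKO kidneys. The rise in Tsc2 KO was a log2 fold change of 0.30 (SE 0.10, adjusted p = 0.0307) and the difference of DKO from Tsc2 KO -0.31 (SE 0.10, adjusted p = 0.0420). The rise was lost without Control vehicle 1, 2 or 3 or Tsc2 KO vehicle 1 or 3, without the filter on low counts or with only the groups compared (adjusted p up to 0.150). The difference of DKO was lost without Tsc2 KO vehicle 1 or 3 or DKO vehicle 1, 2 or 3, without the filter on low counts or with only the groups compared (adjusted p up to 0.178). The log2 fold change with Rapamycin in Tsc2 KO kidneys was -0.11 (adjusted p = 0.437), and the Rapamycin-treated libraries lay above the vehicle Controls.

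Wipi2, the PI3P effector that brings ATG16L1 to the membrane, fell in Tsc2 KO kidneys of the CaggCreERT2 and drug cohorts. Wipi2 (ENSMUSG00000029578, chr5:142627698-142670588, mm10) in the CaggCreERT2 cohort was 13, 14.3 and 12.9 FPKM in Control, 9.65, 10.2 and 10.9 in Tsc2 KO, 13.1, 12.6 and 12 in Tfeb KO and 11.5, 11.4 and 11.9 in DKO kidneys. Tsc2 KO libraries were the lowest and DKO libraries lay between them and the Controls. The fall was a log2 fold change of -0.33 (SE 0.08, adjusted p = 0.0108). The Wipi2 call was lost without Control 2 or without the filter on low counts (adjusted p up to 0.0803). Wipi2 in the KspCre cohort was 13.7, 12 and 11.4 FPKM in Control, 9.95, 10.1 and 11.4 in Tsc2 KO, 11.3, 12.3 and 12.2 in Tfeb KO and 9.64, 12.1 and 11.1 in DKO kidneys, and Tsc2 KO differed from Control with a log2 fold change of -0.24 (adjusted p = 0.211). Wipi2 in the drug cohort was 13.5, 12.1 and 13.1 FPKM in Control, 9.63, 8.39 and 9.16 in Tsc2 KO and 12.8, 11.7 and 12.3 in DKO kidneys under vehicle. With Rapamycin, Wipi2 was 14.3, 13.8 and 14.0 FPKM in Control, 14.1, 12.6 and 11.7 in Tsc2 KO and 12, 13.4 and 12 in DKO kidneys. It fell in Tsc2 KO with a log2 fold change of -0.51 (SE 0.09, adjusted p = 0.000429), rose with Rapamycin with a log2 fold change of 0.50 (SE 0.09, adjusted p = 0.000708) and was higher in DKO than in Tsc2 KO with a log2 fold change of 0.44 (SE 0.09, adjusted p = 0.00303). The change with Rapamycin differed between Tsc2 KO and DKO mice with a log2 fold change of 0.48 (SE 0.13, adjusted p = 0.0366). The Wipi2 call was lost without Tsc2 KO vehicle 2 or 3, Tsc2 KO Rapamycin 1 or 2, DKO vehicle 1 or 3 or DKO Rapamycin 1 or 3 or without the filter on low counts (adjusted p up to 0.159).

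Wipi1, its relative, was called only in the CaggCreERT2 cohort, where it was 10.2, 11.5 and 12.1 FPKM in Control, 9.64, 10.4 and 10.6 in Tsc2 KO, 11.5, 10 and 10.4 in Tfeb KO and 14.0, 12.7 and 15.4 in DKO kidneys. DKO libraries lay above all others of the cohort. DKO exceeded Tsc2 KO with a log2 fold change of 0.43 (SE 0.10, adjusted p = 0.0213) and Control with a log2 fold change of 0.35 (SE 0.10, adjusted p = 0.0489), and Tsc2 KO differed from Control with a log2 fold change of -0.08 (adjusted p = 0.590). The first call was lost without Tsc2 KO 1 or DKO 1 or 3 or under the count table's names (adjusted p up to 0.235). The second was lost without Control 1, 2 or 3 or DKO 1, 2 or 3, with RLE size factors, without the filter on low counts, with a stricter filter on low counts, with only the groups compared, with the replicate number as a block, under the count table's names or with Xist as a covariate (adjusted p up to 0.668). Wipi1 in the KspCre cohort was 8.25, 10.2 and 9.25 FPKM in Control, 11.8, 11.1 and 13.4 in Tsc2 KO, 12.1, 11.7 and 7.63 in Tfeb KO and 9.45, 11.6 and 9.37 in DKO kidneys, and DKO differed from Tsc2 KO with a log2 fold change of -0.25 (adjusted p = 0.608). Wipi1 in the drug cohort was 10.6, 9.06 and 12.9 FPKM in Control, 8.74, 7.97 and 10.5 in Tsc2 KO and 11.4, 11.5 and 12.2 in DKO kidneys under vehicle. With Rapamycin, Wipi1 was 11.0, 10.7 and 11.9 FPKM in Control, 13.1, 9.96 and 10.6 in Tsc2 KO and 10.3, 12.3 and 11.7 in DKO kidneys. DKO differed from Tsc2 KO under vehicle with a log2 fold change of 0.36 (adjusted p = 0.0722).

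The lipid transfer protein gene Atg2a rose in the drug cohort with a log2 fold change of 0.30 (SE 0.11, adjusted p = 0.0426). The Atg2a call was lost without Control vehicle 2 or 3 or Tsc2 KO vehicle 2 or 3, without the filter on low counts or with only the groups compared (adjusted p up to 0.181). Its paralog Atg2b stayed under 5 FPKM in every group and could not be called, with a log2 fold change of 0.57 (SE 0.14, adjusted p = 0.00888) in CaggCreERT2 Tsc2 KO kidneys. Atg9a, which encodes the scramblase of ATG9 vesicles and shares 31.8% of its exonic bases with another transcript, was called between no groups. Atg9b had at most 0.511 FPKM and between 1 and 45 reads per library, too few to describe.

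Of the conjugation systems, Atg7, Atg4b and Atg10 were called with Tsc2 loss. Atg7 (ENSMUSG00000030314, chr6:114643097-114860614, mm10) encodes the E1-like enzyme that activates ATG12 and the ATG8 proteins. Atg7 in the CaggCreERT2 cohort was 6.05, 6.36 and 5.43 FPKM in Control, 8.99, 8.56 and 7.47 in Tsc2 KO, 5.58, 6.02 and 4.99 in Tfeb KO and 6.94, 6.75 and 6.32 in DKO kidneys. The rise in Tsc2 KO was a log2 fold change of 0.55 (SE 0.10, adjusted p = 0.00182), and DKO differed from Tsc2 KO with a log2 fold change of -0.35 (adjusted p = 0.0514). Atg7 in the KspCre cohort was 4.95, 5.24 and 4.44 FPKM in Control, 5.90, 6.77 and 6.03 in Tsc2 KO, 5.44, 5.69 and 4.35 in Tfeb KO and 5.13, 6.29 and 5.59 in DKO kidneys, with Tsc2 KO above Control with a log2 fold change of 0.35 (adjusted p = 0.0993).

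Atg7 in the drug cohort was 4.72, 4.75 and 4.46 FPKM in Control, 7.02, 6.37 and 7.26 in Tsc2 KO and 5.03, 5.61 and 5.12 in DKO kidneys under vehicle. With Rapamycin, Atg7 was 4.30, 4.25 and 4.91 FPKM in Control, 5.04, 4.26 and 5.35 in Tsc2 KO and 4.86, 4.14 and 4.90 in DKO kidneys. The vehicle Tsc2 KO libraries were again the highest of the cohort. The means were 4.64 FPKM in vehicle Control and 4.88 in Rapamycin-treated Tsc2 KO. Against these groups Atg7 reached the FPKM minimum only through vehicle Tsc2 KO. The rise was a log2 fold change of 0.57 (SE 0.11, adjusted p = 0.000551), the fall with Rapamycin -0.49 (SE 0.11, adjusted p = 0.00249) and the difference of DKO from Tsc2 KO -0.39 (SE 0.11, adjusted p = 0.0147). The difference of DKO was lost without Tsc2 KO vehicle 3 or DKO vehicle 1 or 3 or without the filter on low counts (adjusted p up to 0.0634). The change with Rapamycin differed between Tsc2 KO and Control mice with a log2 fold change of -0.44 (adjusted p = 0.0472). This was lost without Control vehicle 1, 2 or 3, Control Rapamycin 1, 2 or 3, Tsc2 KO vehicle 1 or 3 or Tsc2 KO Rapamycin 1 or 2 or without the filter on low counts (adjusted p up to 0.156).

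Atg4b, the protease that primes ATG8 proteins, was 4.82, 4.69 and 4.80 FPKM in Control, 6.57, 6.21 and 6.07 in Tsc2 KO and 5.96, 6.21 and 5.93 in DKO kidneys under vehicle in the drug cohort. With Rapamycin, Atg4b was 5.09, 4.81 and 5.29 FPKM in Control, 5.45, 4.89 and 5.11 in Tsc2 KO and 5.25, 5.36 and 5.06 in DKO kidneys. Both Tsc2-deficient groups under vehicle lay above the Controls. The vehicle Control mean was 4.77 FPKM, so that Atg4b reached the FPKM minimum against Control only through these groups. It rose in Tsc2 KO with a log2 fold change of 0.40 (SE 0.08, adjusted p = 0.000711) and in DKO with a log2 fold change of 0.34 (SE 0.08, adjusted p = 0.0173), and fell with Rapamycin in Tsc2 KO with a log2 fold change of -0.28 (SE 0.08, adjusted p = 0.0112). The call in DKO was lost without Control vehicle 2 or 3 or DKO vehicle 2, without the filter on low counts or with only the groups compared (adjusted p up to 0.121). The fall was lost without the filter on low counts or with only the groups compared (adjusted p up to 0.168). The Rapamycin effect in Tsc2 KO minus that in Control was a log2 fold change of -0.37 (adjusted p = 0.0246). It was lost without Control vehicle 3, Control Rapamycin 1 or 3, Tsc2 KO vehicle 1 or Tsc2 KO Rapamycin 2 or without the filter on low counts (adjusted p up to 0.192). Atg4b in the CaggCreERT2 cohort was 6.25, 5.82 and 6.47 FPKM in Control, 6.53, 6.25 and 7.05 in Tsc2 KO, 6.20, 6.51 and 5.77 in Tfeb KO and 6.28, 6.70 and 6.33 in DKO kidneys. Atg4b in the KspCre cohort was 5.00, 4.61 and 4.52 FPKM in Control, 5.64, 6.13 and 5.83 in Tsc2 KO, 4.27, 4.63 and 5.04 in Tfeb KO and 5.27, 5.70 and 5.62 in DKO kidneys. Tsc2 KO differed from Control with a log2 fold change of 0.16 (adjusted p = 0.176) and 0.31 (adjusted p = 0.0530).

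Atg10, the E2-like enzyme for ATG12, was 9.16, 11.1 and 8.47 FPKM in Control, 8.12, 6.33 and 7.42 in Tsc2 KO and 9.70, 8.22 and 8.76 in DKO kidneys under vehicle in the drug cohort. With Rapamycin, Atg10 was 10, 9.55 and 8.97 FPKM in Control, 10, 10 and 10.4 in Tsc2 KO and 7.65, 9.52 and 9.53 in DKO kidneys. The vehicle Tsc2 KO libraries were lower than all vehicle Controls. The fall was a log2 fold change of -0.39 (SE 0.14, adjusted p = 0.0304) and the rise with Rapamycin 0.48 (SE 0.14, adjusted p = 0.0148). The fall was lost without Control vehicle 2 or Tsc2 KO vehicle 2 or 3, without the filter on low counts or with only the groups compared (adjusted p up to 0.157). The rise was lost without Tsc2 KO vehicle 2, without the filter on low counts or with only the groups compared (adjusted p up to 0.0858). Atg10 in the CaggCreERT2 cohort was 10.5, 10.4 and 9.17 FPKM in Control, 7.37, 8.77 and 8.15 in Tsc2 KO, 9.14, 9.56 and 7.41 in Tfeb KO and 9.10, 7.76 and 10.3 in DKO kidneys. Atg10 in the KspCre cohort was 9.73, 8.52 and 9.56 FPKM in Control, 9.40, 7.96 and 9.42 in Tsc2 KO, 10.6, 8.67 and 8.80 in Tfeb KO and 7.92, 10.1 and 8.21 in DKO kidneys. The differences of Tsc2 KO from Control were log2 fold changes of -0.25 (adjusted p = 0.216) and -0.06 (adjusted p = 0.848).

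The E2-like enzyme of the ATG8 system, Atg3, was higher in CaggCreERT2 DKO than in Control kidneys with a log2 fold change of 0.40 (SE 0.10, adjusted p = 0.0230). The Atg3 call was lost without Control 1, 2 or 3 or DKO 1 or 2, without the filter on low counts or under the count table's names (adjusted p up to 0.643). Atg4a, Atg4c, Atg4d, Atg5, Atg12 and Atg16l1 were called between no groups, and their largest log2 fold changes were between 0.22 (Atg5, Atg4a) and 0.41 (Atg4d) in size. Atg16l1 stayed under 5 FPKM in every group and could not be called. Atg12 and Atg5, whose products are joined to each other, ranged over 20.4 to 35.9 and 13 to 19.5 FPKM across all libraries.

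**Figure D4:**
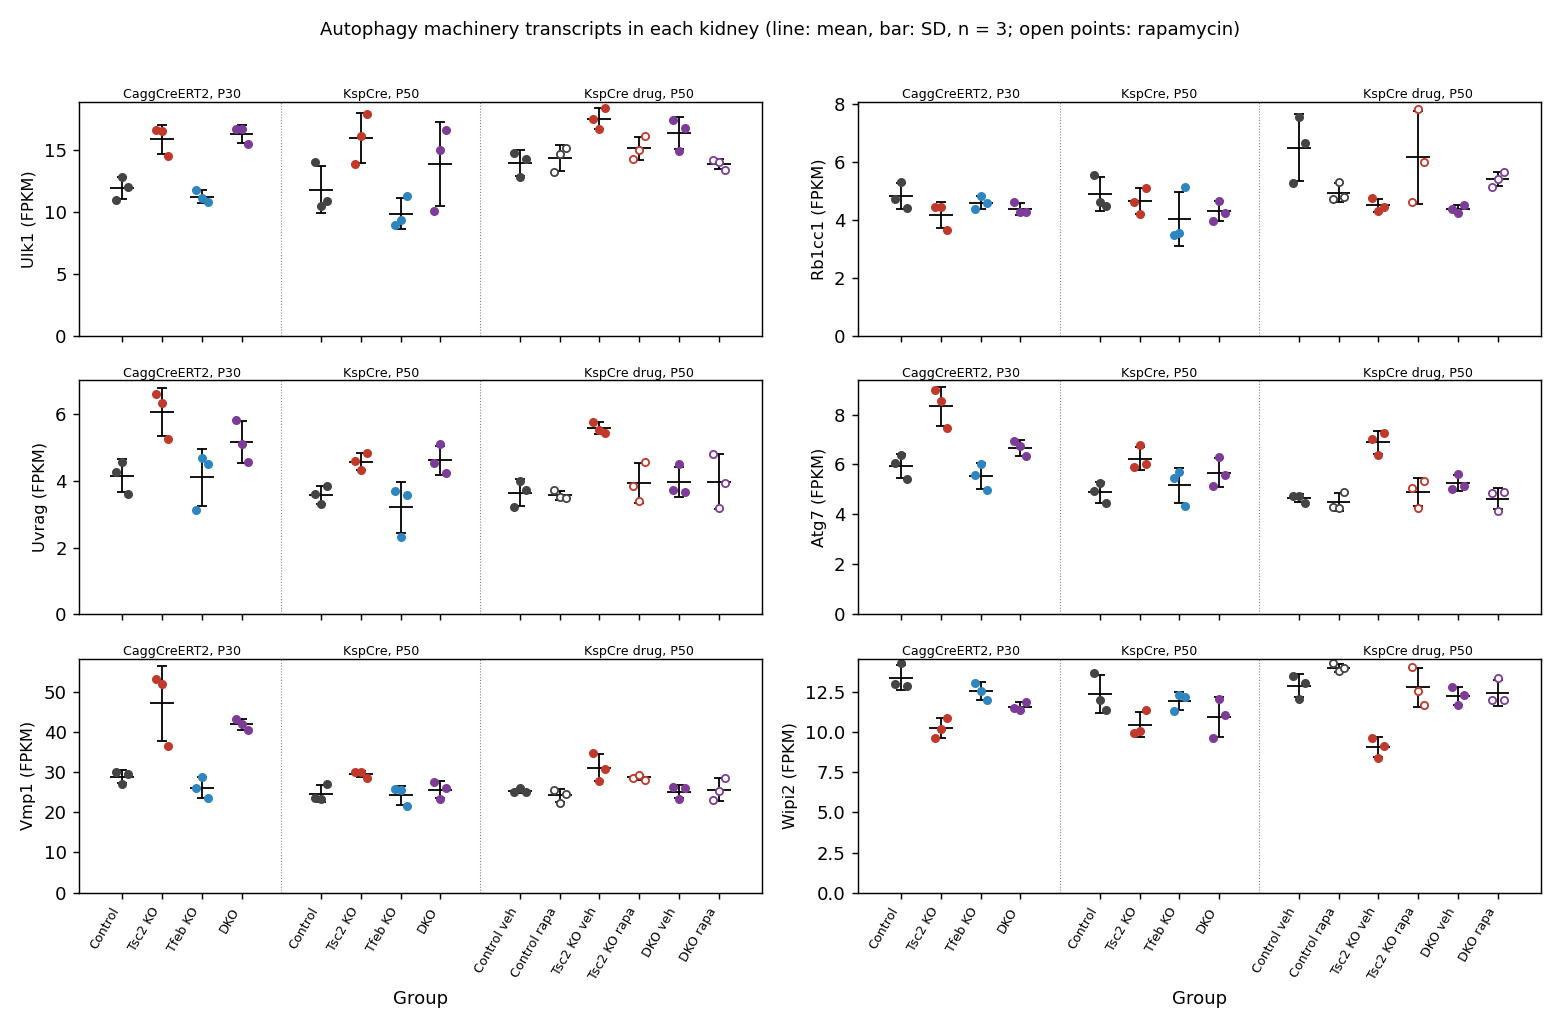
FPKM of Ulk1, Rb1cc1, Uvrag, Atg7, Vmp1 and Wipi2 in each library (points, open under Rapamycin) of the 14 groups, with the mean (line) and SD (bar), n = 3. Uvrag and Atg7 are highest in the Tsc2 KO groups of the CaggCreERT2 and drug cohorts and, in the latter, lie at 3.40 to 4.57 and 4.26 to 5.35 FPKM under Rapamycin, while the Wipi2 mean is lowest in vehicle-treated Tsc2 KO kidneys.

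The ATG8 family, whose lipid-bound forms recruit receptors and the fusion machinery, held some of the most abundant members, and few of them were called. Per length, Gabarapl1 was the highest of the family in every library, at 241 to 573 FPKM, followed by Gabarap at 121 to 237 FPKM except in DKO vehicle 2 of the drug cohort, where Map1lc3a had 147 and Gabarap 140 FPKM. Gabarapl2 (26.9 to 41.2 FPKM) and Map1lc3b (23.6 to 40.0 FPKM) were the lowest in most libraries, with overlapping ranges. Of the exonic bases of Gabarapl1, 28.3% are shared with a transcript on the other strand. Gabarapl1 made up 53.6 ± 1.71% (SD, n = 3) of the family's summed FPKM in CaggCreERT2 Control, 60.8 ± 0.996% in KspCre Control and 65.7 ± 2.97% in vehicle-treated Control kidneys. In Tsc2 KO and DKO kidneys its share was 46.6 to 56.4% and 46.8 ± 0.449% in CaggCreERT2 mice, 59.5 ± 1.71% and 59.0 ± 2.18% in KspCre mice and 58.4 ± 1.15% and 59.5 ± 5.86% in the drug cohort under vehicle. Shares of CaggCreERT2 DKO (46.5 to 47.3%) and drug cohort Tsc2 KO libraries (57.7 to 59.8%) lay below all those of their Controls (51.8 to 55.1% and 62.4 to 68.1%), while the other 4 of these groups overlapped with theirs. No test was made of these shares.

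Calls between groups were made in this family in the CaggCreERT2 cohort. Map1lc3b, which encodes LC3B, was 28.3, 29.9 and 28.7 FPKM in Control, 34.6, 39.3 and 40.0 in Tsc2 KO, 29.9, 26.8 and 23.8 in Tfeb KO and 35.2, 37.8 and 36.7 in DKO kidneys, a rise with a log2 fold change of 0.45 (SE 0.10, adjusted p = 0.00514) in Tsc2 KO and 0.37 (SE 0.10, adjusted p = 0.0317) in DKO. The call in Tsc2 KO was lost under the count table's names (adjusted p up to 0.0852). That in DKO was lost without Control 1, 2 or 3 or DKO 1, 2 or 3, without the filter on low counts, with the replicate number as a block, under the count table's names or with Xist as a covariate (adjusted p up to 0.708). Gabarap was 191, 173 and 178 FPKM in Control, 227, 226 and 237 in Tsc2 KO, 192, 175 and 129 in Tfeb KO and 194, 213 and 214 in DKO kidneys, a rise in Tsc2 KO with a log2 fold change of 0.41 (SE 0.12, adjusted p = 0.0256). The Gabarap call was lost without Control 1, 2 or 3 or Tsc2 KO 1, under the count table's names or with Xist as a covariate (adjusted p up to 0.105). In KspCre Tsc2 KO kidneys the differences were log2 fold changes of 0.30 (adjusted p = 0.0925) for Map1lc3b and 0.06 (adjusted p = 0.806) for Gabarap, and in the drug cohort -0.01 (adjusted p = 0.942) and 0.17 (adjusted p = 0.359). Gabarapl2 was called between no groups.

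Map1lc3a was the most variable member of the family. Map1lc3a in the drug cohort was 64.9, 23.5 and 43.1 FPKM in Control, 69.2, 51.9 and 58.4 in Tsc2 KO and 70.8, 147 and 68.3 in DKO kidneys under vehicle. With Rapamycin, Map1lc3a was 76.3, 72.5 and 77.2 FPKM in Control, 77.0, 23.9 and 60.1 in Tsc2 KO and 64.3, 66.2 and 57.2 in DKO kidneys. Libraries of a group differed most in Control and DKO under vehicle and in Tsc2 KO with Rapamycin, and those of the other 3 groups lay within 51.9 to 77.2 FPKM. The value of 147 FPKM belongs to DKO vehicle 2, the library with the high sum of adrenal and fat markers. DKO differed from Control under vehicle with a log2 fold change of 1.12 (SE 0.38, adjusted p = 0.0912), and with a log2 fold change of 0.68 (adjusted p = 0.346) without that library. Gabarapl1 was called between no groups, but its change with Rapamycin differed between Tsc2 KO and DKO mice with a log2 fold change of 0.65 (SE 0.19, adjusted p = 0.0497). The change itself was a log2 fold change of 0.29 (adjusted p = 0.119) in Tsc2 KO and -0.36 (adjusted p = 0.130) in DKO mice. The Gabarapl1 call was lost without Tsc2 KO vehicle 2 or 3, Tsc2 KO Rapamycin 2 or 3, DKO vehicle 1 or 3 or DKO Rapamycin 1, 2 or 3, without the filter on low counts or with the replicate number as a block (adjusted p up to 0.136).

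**Figure D5:**
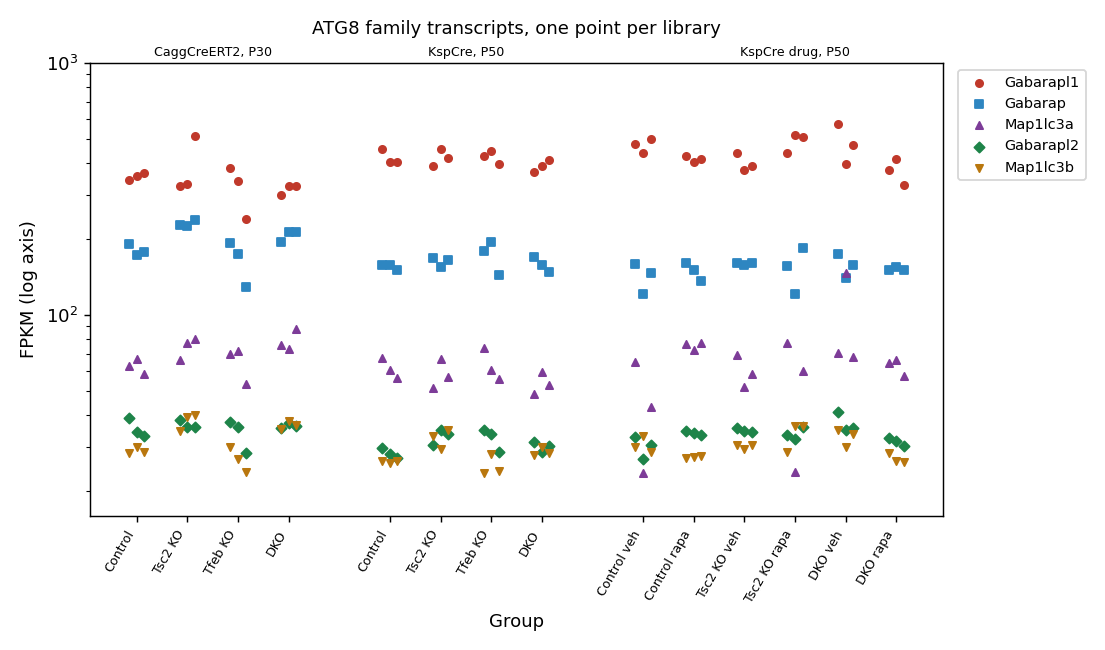
FPKM (log axis) of the 5 ATG8 family genes in each of the 42 libraries, ordered by group. Gabarapl1 lies above the others throughout, at 241 to 573 FPKM, and Map1lc3a ranges from 23.5 to 147 FPKM within the drug cohort.

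Other genes of the pathway were read as 3 lists. Of 15 genes for fusion with lysosomes, 13, 11 and 13 could pass in Tsc2 KO against Control in the CaggCreERT2, KspCre and drug cohorts, and 10, 2 and 6 rose while none fell, where 23.0%, 9.42% and 23.8% of all genes rose. Their median log2 fold changes were 0.33, 0.18 and 0.17. Of 10 further PI3P effectors and regulators 9 could pass in each cohort, and 3 rose in each while 1 fell in the drug cohort. Of 11 other selective receptors 1 rose in the CaggCreERT2 cohort, 1 fell in the KspCre cohort and 4 fell in the drug cohort, of 9, 8 and 8 that could pass, where 15.5%, 8.74% and 24.6% of all genes fell. With Rapamycin in Tsc2 KO kidneys 5 fusion genes fell and none rose, 1 of the PI3P effectors and regulators rose and 3 fell, and 3 of the selective receptors rose and none fell, where 21.2% of all genes rose and 17.3% fell. In DKO against Control kidneys 5, 0 and 1 fusion genes rose in the CaggCreERT2, KspCre and drug cohorts, 3, 1 and 3 of the PI3P effectors and regulators rose, 1, 0 and 0 of the selective receptors rose, and none of the 3 lists had a fall, where 10.2%, 2.33% and 5.37% of all genes rose. In DKO against Tsc2 KO kidneys 2 fusion genes fell in the CaggCreERT2 cohort, where 6.91% of all genes rose and 7.56% fell. In the drug cohort 1 fusion gene and 1 PI3P effector or regulator fell and 1 selective receptor rose, where 16.9% of all genes rose and 12.6% fell. No gene of these lists was called between these groups in the KspCre cohort, where 0.286% of all genes were called. So few calls do not set these lists apart from all genes. The counts of single lists rest on few genes.

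Called higher in Tsc2 KO kidneys of all 3 cohorts were Trp53inp1, Zfyve1, Vps18 and Plekhm1, again without a matching count over all genes. Trp53inp1, a stress-induced protein that binds ATG8 proteins, rose with a log2 fold change of 1.56 (adjusted p = 0.000109), 1.69 (adjusted p = 0.000511) and 1.91 (adjusted p = 2.75e-07). Trp53inp1 in the drug cohort was 5.07, 6.97 and 5.81 FPKM in Control, 24.4, 20.0 and 22.7 in Tsc2 KO and 7.99, 9.69 and 7.79 in Rapamycin-treated Tsc2 KO kidneys, a fall with a log2 fold change of -1.40 (SE 0.16, adjusted p = 1.04e-05). In DKO kidneys Trp53inp1 was 13.9, 13.1 and 16.5 FPKM in CaggCreERT2 mice, 10.1, 13.7 and 12 in KspCre mice and 13.7, 10.7 and 15.1 under vehicle in the drug cohort, above all Control libraries of the same cohort. Against Control these were log2 fold changes of 1.57 (adjusted p = 0.000288), 1.11 (adjusted p = 0.0191) and 1.14 (adjusted p = 0.000653). Against Tsc2 KO the values were log2 fold changes of 0.01 (adjusted p = 0.985), -0.58 (adjusted p = 0.249) and -0.77 (adjusted p = 0.00224), so that it was called lower in DKO in the drug cohort. Zfyve1 encodes DFCP1, the PI3P-binding marker of the sites where autophagosomes form, and rose with a log2 fold change of 0.87 (adjusted p = 5.26e-05), 0.83 (adjusted p = 0.00199) and 0.77 (adjusted p = 6.20e-05). Vps18, a subunit of the HOPS tethering complex, rose with a log2 fold change of 0.90, 0.73 and 0.65. Plekhm1, an adaptor between ATG8 proteins and HOPS, rose with a log2 fold change of 1.07, 0.64 and 0.46. In the drug cohort Rapamycin lowered Zfyve1 with a log2 fold change of -0.50 (adjusted p = 0.00296) and Vps18 with a log2 fold change of -0.52 (adjusted p = 0.00865), while the value for Plekhm1 was a log2 fold change of -0.34 (adjusted p = 0.0722). In DKO against Control, Zfyve1, Vps18 and Plekhm1 were called higher in the CaggCreERT2 cohort and Zfyve1 and Vps18 in the drug cohort, and none of these 3 genes was called between DKO and Tsc2 KO kidneys.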

How the data were processed

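For each cohort the authors deposited raw counts of reads per gene and FPKM, which the authors scaled by gene length and library size. The submitters' processing notes name STAR 2.6.1d, HISAT2 2.0.5, featureCounts 1.5.0-p3, DESeq2 1.20.0 and mm10, without saying which step used which. Poly-A libraries were made without strand information. Count columns were joined to FPKM columns by proportionality. Counts of each cohort were filtered by filterByExpr, normalized by TMM and tested with edgeR 4.0.16 (glmQLFit and glmQLFTest, all groups of a cohort in 1 fit, Benjamini-Hochberg over all tested genes) in R 4.3.3. DESeq2 1.42.0, RLE size factors, other filters, smaller fits, a replicate block, the count table's names, Xist as a covariate and left-out libraries were the alternatives. Depth was 14926050 to 22807605 reads per library. Scripts were tested on simulated data. Named with the value in every library are members called in Tsc2 KO against Control in at least 2 cohorts, or between DKO and Tsc2 KO, Tfeb KO and Control or Rapamycin and vehicle. Others are given by range and counts, except Map1lc3a, Map1lc3b and Gabarap, which were chosen after their values were seen. Other genes of the pathway are named if called in 1 direction in all 3 cohorts. The members and lists were chosen with earlier results of these data known. The authors' counts and FPKM values were used with no sample left out.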

Additional observations from a re-analysis of the deposited data

Results flagged for a closer look

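Tests of the difference between 2 effects were past the threshold for 10 values, all in the drug cohort. The Rapamycin effect in Tsc2 KO minus that in Control (log2, edgeR) was -0.85 for Sqstm1, -0.44 for Atg7 and -0.37 for Atg4b. It was 0.87 for Nbr1, 0.85 for Rb1cc1, 0.69 for Ulk2 and 0.67 for Tax1bp1. The Rapamycin effect in Tsc2 KO minus that in DKO was 0.65 for Gabarapl1, 0.51 for Nbr1 and 0.48 for Wipi2. Proximal tubule, distal nephron and macrophage marker sums of the Tsc2 KO libraries did not overlap between vehicle and Rapamycin, and their part in these values was not tested. With 3 libraries a group, no outlier test was applied to the values of members.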

How the results depend on the processing

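Of 68 called member values, 22 stayed past the threshold under every alternative and every left-out library, and none changed direction. RLE size factors and no FPKM minimum moved none of the 36 counts of called members by over 1.5 times. Under the count table's names, which place a library with Tsc2 at 10.2 FPKM among the DKO and 1 with 5.26 among the Tfeb KO and so go against the Tsc2 levels of these genotypes, 13 of 18 CaggCreERT2 calls were lost and 4 members (Sqstm1, Optn, Atg7 and Uvrag) rose in CaggCreERT2 Tsc2 KO against Control, 0 in DKO against Tsc2 KO and 0 in DKO against Control. Without a filter on low counts 0 fell in CaggCreERT2 Tsc2 KO and 4 rose in DKO against Control. In the drug cohort that setting gave 5 higher in Tsc2 KO, 1 lower in DKO against Tsc2 KO, 1 downward difference of the Rapamycin effect from Control and 0 upward from DKO. A stricter filter gave 2 lower in CaggCreERT2 Tsc2 KO, 1 lower in DKO against Tsc2 KO, and 2 lower in DKO against Control in the drug cohort. DESeq2 gave 2 and 1 for the same CaggCreERT2 counts, 4 higher in KspCre Tsc2 KO and 1 lower in KspCre DKO against Tsc2 KO, and 5 higher and 2 lower in DKO against Control in the drug cohort. With Xist as a covariate 2 fell in CaggCreERT2 Tsc2 KO. With only the groups compared, the drug cohort gave 5 higher in Tsc2 KO, 3 higher with Rapamycin in Tsc2 KO, 3 lower in DKO against Tsc2 KO, 0 and 0 in DKO against Control and 1 lower with Rapamycin in DKO.

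In 13 of 14 comparisons same-numbered libraries did not all deviate together (correlation over 0.1), and the median correlation was 0.00882, -0.0400 and -0.00502 in the 3 cohorts. The exception was KspCre DKO against Tsc2 KO, where the replicate block, chosen after seeing the data for a fit of these 2 groups, called 0 members as before. In the fits of all groups the replicate block gave 1 lower in CaggCreERT2 DKO against Tsc2 KO and 1 lower with Rapamycin in DKO, and moved no other count by over 1.5 times. Of the 68 called values 8 lost their call under it. These were Calcoco1 in CaggCreERT2 Tsc2 KO, Map1lc3b and Wipi1 in CaggCreERT2 DKO against Control, Becn1 with Rapamycin in Tsc2 KO, Optn in drug cohort DKO against Tsc2 KO, against Control and with Rapamycin, and Gabarapl1 for the difference of the Rapamycin effect from DKO (adjusted p 0.0512 to 0.0729, edgeR).

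Leaving out 1 library gave 6 to 9 higher and 0 to 2 lower in CaggCreERT2 Tsc2 KO, 0 to 1 and 0 to 2 in DKO against Tsc2 KO, 3 to 5 higher in DKO against Control and 1 to 2 higher in KspCre Tsc2 KO. In the drug cohort it gave 5 to 9 higher and 2 to 6 lower in Tsc2 KO, 3 to 5 and 4 to 6 with Rapamycin in Tsc2 KO, 2 to 3 and 0 to 4 in DKO against Tsc2 KO, 1 to 4 and 0 to 2 in DKO against Control and 0 to 2 lower with Rapamycin in DKO. Differences of the Rapamycin effect ranged over 3 to 5 upward and 1 to 3 downward from Control, and 0 to 3 upward from DKO. Counts not named stayed at 0. Libraries that decided the call of a member described with its values are named beside it. Without DKO vehicle 2, the library with adrenal and fat markers, DKO against Control had 1 higher and 0 lower. The cause of these changes was not tested.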
